A study of Homo sapiens with 6 samples.

Results

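The monocarboxylate transporter family, the SLC16 genes, together with the 2 membrane glycoproteins that carry its best known members to the cell surface, was followed in HCT116 cells, a human colorectal cancer line, with and without depletion of STBD1. The genes were given by name, as 8 SLC16 transporters (SLC16A1, SLC16A3, SLC16A6, SLC16A7, SLC16A9, SLC16A10, SLC16A13 and SLC16A14) and the partners BSG and EMB, and each symbol was matched to 1 Ensembl gene of the 58395 listed. The list was selected on measured values of the same contrast that is described here. The differences between the groups in these 10 genes are therefore a description, and their calls support nothing. The 6 other SLC16 genes and 3 lists of neighbouring metabolism were examined beside them. These lists too were chosen with earlier results of these data known, so their calls are a description as well.

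The libraries came from HCT116 cells that stably expressed a lentiviral hairpin, either a non-target control (shControl, 3 libraries) or a hairpin against STBD1 (shSTBD1, 3 libraries). Both groups were grown alike in DMEM with fetal bovine serum, and both carried a hairpin vector, so that uninfected cells were not part of the comparison. A single hairpin sequence stood for the depletion of STBD1, a protein proposed to tether glycogen to the autophagy machinery. The study calls the 3 libraries of a group biological replicates, while the labels give only a number from 1 to 3. The RNA-seq reads had been assigned to genes in the form of expected counts, which are estimated numbers of reads per gene, and as TPM, a share of all transcripts that divides by transcript length and so allows levels of different genes to be compared. Counts scaled to library size are given as CPM, which does not divide by length.

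Monocarboxylate transporters move small acids such as lactate, pyruvate and ketone bodies across membranes, and the best known of them do so together with a proton. Cells that run a strong glycolysis, as many tumour cells do, export lactate and its proton by this route. Several of these transporters reach the plasma membrane only with an ancillary glycoprotein, basigin (BSG, CD147) or embigin (EMB), and more distant members of the family carry other cargo, among them carnitine and aromatic amino acids.

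The libraries held between 17689097 and 21668274 expected counts, and 15566 genes had enough counts to be tested. STBD1, the gene the hairpin targets, measured 16.2, 15.7 and 14.4 CPM in the shControl libraries and 11.6, 9.06 and 9.18 CPM in the shSTBD1 libraries. It was lower in 3 of 3 libraries, by a log2 fold change of -0.64 with a standard error of 0.098 (edgeR quasi-likelihood F-test, Benjamini-Hochberg adjusted p = 2.91e-04), so the depletion was partial at the RNA level. Of 16 other settings, 2 did not call it, and the adjusted p ran from 6.59e-10 to 0.0672. Of 7 markers of colon epithelium, 6 were tested and only VIL1 was under 1 TPM in every library. Of these 6, 4 (CDH1, KRT8, KRT18 and KRT19) were called higher in shSTBD1, beside 8.22% of all tested genes called higher. EPCAM and CDX2 were not called. The CPM of CDX2 overlapped, while its TPM was lower, at 7.65, 7.46 and 6.89 in shControl and 5.59, 4.57 and 6.0 in shSTBD1. The summed TPM of the 7 ran from 2858 to 2893 in shControl and from 3242 to 3378 in shSTBD1. The markers thus did not move as 1, and their part in the results below was not tested. Leukocyte and endothelial markers were under 1 TPM in all libraries (4 of 4 and 3 of 3), with PTPRC and CD3E at 0. Among 4 fibroblast markers COL1A1 alone exceeded 1 TPM, and the sum ran from 14.6 to 19.6 TPM in shControl and from 17.1 to 20.7 TPM in shSTBD1. Replicate 1 of shControl stood apart from its group, with a chi-square per degree of freedom of 4.98 and 6.21 against the other shControl libraries, where the remaining within-group pairs gave 1.65 to 2.05. Values that turned sign or moved by over 1.5 times without it are given beside the result. This was checked for the members, STBD1, the other tested SLC16 genes and the called genes of the 3 lists. Uncalled genes outside the SLC16 family and its partners were not examined without that library.

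The 3' ends of 3 family members hold a 7-base site that pairs with the hairpin used for the depletion, and these sites are shown first because they concern how the contrast itself was made. A short hairpin is processed into a guide strand whose bases 2 to 8 pair with its target, and other transcripts can hold the same 7 bases. The site GATTTCT, which pairs with these bases of the shSTBD1 guide, was sought on the sense strand of the 3' UTR of the canonical transcript (GENCODE 44, GRCh38). It was present in 18.5% of 13032 such 3' UTRs. It was present in SLC16A1 once, in SLC16A6 once and in SLC16A7 at 2 positions, and in none of the other 7 members. In the windows below the site is in capitals.
SLC16A1, chr1:112913329-112913357, minus strand: tagcatcagtaGATTTCTggcatatgttt
SLC16A6, chr17:68267205-68267233, minus strand: tatttataactGATTTCTgagggatctgc
SLC16A7, chr12:59784947-59784975, plus strand: cataccaacaaGATTTCTaaccacaacca
SLC16A7, chr12:59785048-59785076, plus strand: tttaagattttGATTTCTgcacaaccata

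The 7-base site GTGTCAC, part of the shControl hairpin, was present in 9.81% of the 3' UTRs and, among the members, only in SLC16A7, as 1 site. The site TGTCACG, which pairs with bases 2 to 8 of the shControl guide, was present in 3.04% and in 0 of the 10 members. SLC16A7 has a 3' UTR of 10162 bases, the longest of the members, which run from 155 bases in SLC16A13 upward. The 3 genes with a GATTTCT site had log2 fold changes of -0.05 (SLC16A1), -0.81 (SLC16A6) and 0.35 (SLC16A7), 1 not called, 1 lower and 1 higher in the counts. A match is a description of letters, and whether the hairpin acts on these transcripts was not tested.

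In levels, the family was dominated by the exporter SLC16A3 and the bidirectional lactate transporter SLC16A1. SLC16A3, which encodes MCT4, the transporter typical of strongly glycolytic cells, measured 404, 386 and 392 TPM in shControl and 388, 387 and 375 TPM in shSTBD1. SLC16A1, which encodes MCT1, measured 112, 121 and 117 TPM in shControl and 113, 112 and 98.9 TPM in shSTBD1. The groups overlapped in both genes. Together these 2 genes made up 89.8% ± 0.51 (SD, n = 3) of the summed TPM of all 14 SLC16 genes in shControl and 90.2% ± 0.73 (SD, n = 3) in shSTBD1, and between 89.3% and 90.7% in any single library. Basigin, the partner that both need, stood above them, at a mean over all libraries of 455 TPM against 389 TPM for SLC16A3 and 112 TPM for SLC16A1. For BSG and for SLC16A3 the TPM lay outside RSEM's own credibility interval in 6 of 6 libraries, so these levels are less certain. Over the shControl libraries, the lowest and highest bounds were 422.9 and 452.1 TPM for BSG and 354.5 and 396.2 TPM for SLC16A3. Over the shSTBD1 libraries they were 393.7 and 419.8 TPM for BSG and 340.8 and 381.4 TPM for SLC16A3. A TPM can lie within such bounds of a group and still be outside the interval of its own library.

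The remaining genes were lower by an order of magnitude. SLC16A5, a transporter of some drugs that is outside the list of 10, averaged 14.2 TPM, SLC16A14, an orphan transporter, 10.7 TPM and EMB 7.84 TPM. SLC16A9, linked to carnitine efflux, averaged 7.73 TPM. SLC16A6, linked to ketone body transport, averaged 5.30 TPM and SLC16A7, the high-affinity pyruvate and lactate transporter MCT2, 4.52 TPM. SLC16A10, which carries aromatic amino acids, averaged 4.34 TPM and SLC16A13, an orphan transporter linked to lactate, 4.30 TPM. From EMB down to SLC16A8 (4.09 TPM), the ranges over the 6 libraries of each gene and the next in the order overlapped, so that this lower part of the order is not settled by the spread. The neighbours above it, from BSG to EMB, had ranges that did not overlap. SLC16A4, an orphan, averaged 0.53 TPM and SLC16A11, a transporter of pyruvate, 0.14 TPM. SLC16A12, linked to creatine, ran from 0 to 0.01 TPM, which is at or near the detection limit.

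Of the 10 listed genes, all were tested, and 4 were called at an adjusted p under 0.05, 1 higher and 3 lower in shSTBD1. Of all 15566 tested genes, 15.8% were called, 8.22% as higher and 7.54% as lower. The same 4 members had CPM values that did not overlap between the groups, where 33.6% of all tested genes did not overlap. Since the list was chosen with this contrast known, nothing is read from these shares. The median log2 fold change of the members was -0.05 and the median absolute log2 fold change was 0.08, beside 0.0023 and 0.11 over all tested genes. The members ran from -0.81 in SLC16A6 to 0.35 in SLC16A7. In bulk RNA, less RNA in every cell and fewer cells that express a gene cannot be told apart.

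SLC16A6 was the member that differed most. It measured 19.9, 17.4 and 17.8 CPM in the shControl libraries and 9.41, 10.7 and 11.2 CPM in the shSTBD1 libraries. Every shSTBD1 library lay well below every shControl library, with group means of 18.4 ± 1.33 and 10.4 ± 0.926 CPM (SD, n = 3 each). The log2 fold change was -0.81 (standard error 0.086), and 1.3% of the tested genes had a larger absolute value. It ranked 36 among the 1173 genes called lower. In TPM the picture was the same, with 7.09, 6.51 and 6.79 in shControl and 3.45, 3.83 and 4.13 in shSTBD1. The credibility intervals that RSEM gives for a single library ran from 5.72 to 8.25 TPM in shControl and from 2.98 to 5.24 TPM in shSTBD1 and did not meet. SLC16A6 was called lower under all 16 alternative settings, with log2 fold changes from -0.86 to -0.70, and without shControl replicate 1 it was -0.75.

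SLC16A6 lies on the minus strand of chromosome 17 of GRCh38, from 68267026 to 68291267, inside the span of the sulfatase gene ARSG on the plus strand, and the exons of the pair share 144 bases, 3.55% of those of SLC16A6. A strand setting for the counting is not given in the sources used here, so reads in the shared bases cannot be assigned to one strand with certainty. ARSG, a gene outside the list that was chosen after its values were seen, measured 9.87, 10.97 and 11.3 CPM in shControl and 6.94, 7.49 and 7.41 CPM in shSTBD1. It was lower in 3 of 3 libraries, by a log2 fold change of -0.55 with a standard error of 0.098 (edgeR, Benjamini-Hochberg adjusted p = 0.00107), with an adjusted p between 1.74e-05 and 0.0326 over 16 alternatives. Within 250000 bases of SLC16A6, 12 genes were tested and only SLC16A6 and ARSG were called. The autophagy gene WIPI1 (0.08, standard error 0.084), AMZ2 (0.03, standard error 0.037), the protein kinase A subunit PRKAR1A (-0.0029, standard error 0.031) and the importin KPNA2 (-0.0082, standard error 0.031) were not called. The part of the overlap with ARSG in the difference of SLC16A6 was not tested. A pseudogene, SLC16A6P1, held between 0 and 17.0 expected counts per library, and the posterior standard deviation of the SLC16A6 count was at most 0.64 reads.

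SLC16A7 was the member called higher in shSTBD1, and its groups were apart in counts but overlapped in TPM. It measured 18.8, 23.5 and 21.6 CPM in shControl and 25.8, 27.3 and 28.4 CPM in shSTBD1, so the groups did not overlap. Its means were 21.3 ± 2.35 and 27.2 ± 1.32 CPM (SD, n = 3 each), with a log2 fold change of 0.35 (standard error 0.075). Without shControl replicate 1, the lowest library, it was 0.27, and without shControl replicate 2 it was 0.43. In TPM the libraries measured 3.34, 4.85 and 4.88 in shControl and 3.92, 4.77 and 5.34 in shSTBD1, and here the groups overlapped, with means of 4.36 ± 0.881 and 4.68 ± 0.715 TPM (SD, n = 3 each). TPM divides by RSEM's effective length, the length of the transcripts taken as expressed less that of the fragments. This length was 6277, 5655 and 5081 bases in shControl and 7482, 6386 and 5976 bases in shSTBD1, up to 1.47 times as long in one library as in another. The mean effective lengths, 5671 ± 598 and 6614 ± 778 bases (SD, n = 3 each), gave a log2 ratio of 0.22, and the groups overlapped. With offsets for effective length the log2 fold change of SLC16A7 was 0.12, and in limma on log2(TPM + 1) and log2(TPM + 0.1) it was 0.09 and 0.11, none of them called. SLC16A7 spans 193827 bases of chromosome 12 of GRCh38, from 59596029 to 59789855, and has 16 transcripts in the authors' annotation. Which of these carried the reads is not resolved by gene-level values.

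The ratio of SLC16A6 to SLC16A7 in TPM was 2.12, 1.34 and 1.39 in shControl and 0.880, 0.803 and 0.773 in shSTBD1. In TPM SLC16A6 was above SLC16A7 in each control library and below it in each depleted one. This order is uncertain, since the TPM of SLC16A7 lay outside RSEM's own credibility interval in 4 of 6 libraries. For SLC16A7 the lowest and highest bounds over the shControl libraries were 3.998 and 9.14 TPM. Those over the shSTBD1 libraries were 4.73 and 9.12 TPM. In both groups this range met that of SLC16A6. In counts the genes are not comparable with one another, since SLC16A7 has the longer transcripts.

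SLC16A9, on chromosome 10 of GRCh38 from 59650764 to 59736002, was lower by a smaller amount. It measured 29.3, 27.6 and 26.5 CPM in shControl and 23.0, 23.2 and 24.6 CPM in shSTBD1. The groups did not overlap, with means of 27.8 ± 1.38 and 23.6 ± 0.865 CPM (SD, n = 3 each) and a log2 fold change of -0.24 (standard error 0.061). In TPM the values were 8.42, 8.51 and 7.99 in shControl and 7.0, 7.13 and 7.34 in shSTBD1, again without overlap. Its call was lost in 5 of 16 settings, among them those without shSTBD1 replicate 1 or 2, where the log2 fold change stayed below 0.

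BSG, which is also the receptor of cyclophilin A and lies on chromosome 19 of GRCh38 from 571277 to 583494, was lower by the least of the called members. It measured 551, 539 and 558 CPM in shControl and 508, 521 and 510 CPM in shSTBD1. The libraries of each group lay close together and the groups did not overlap, at 549 ± 9.72 and 513 ± 6.72 CPM (SD, n = 3 each). The log2 fold change was -0.10 (standard error 0.030), and 54.7% of the tested genes had a larger absolute value. The call of BSG was lost in 7 of 16 settings, while its log2 fold change stayed between -0.11 and -0.09. In TPM it measured 463, 475 and 482 in shControl and 437, 441 and 435 in shSTBD1.

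**Figure D1:**
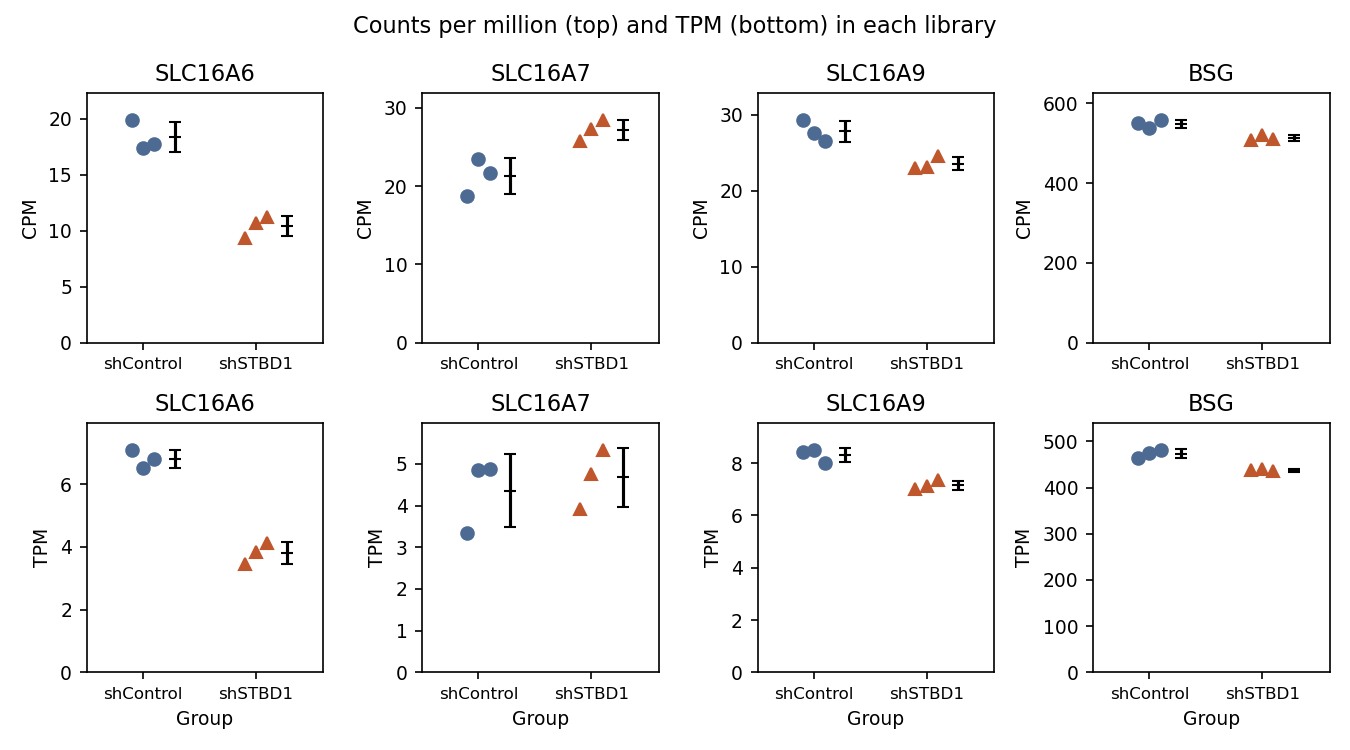
CPM (upper row) and TPM (lower row) of SLC16A6, SLC16A7, SLC16A9 and BSG in each library from an axis that starts at 0, with shControl as circles, shSTBD1 as triangles, and the mean with 1 SD (n = 3) as a black bar. The groups are apart on both scales for SLC16A6, SLC16A9 and BSG, and for SLC16A7 they are apart in CPM and overlap in TPM.

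The sequences around the start of 3 of the called genes are shown as context for these genes, chosen after the values were seen. The RefSeq table for GRCh38.p14 gave 13 starts for 6 of the 10 members (SLC16A3, SLC16A7, SLC16A9, SLC16A10, SLC16A14 and BSG), each with 250 bases before and 50 after the start. SLC16A1, SLC16A6, SLC16A13 and EMB were not matched. Capitals mark CACGTG, a palindrome that MYC, MAX and related factors can bind, ACGTG, the core of the hypoxia response element, which lies within CACGTG on each strand, and GGGCGG, the GC box, with the reverse complement of each.
SLC16A9, chr10:59710030-59710329, minus strand: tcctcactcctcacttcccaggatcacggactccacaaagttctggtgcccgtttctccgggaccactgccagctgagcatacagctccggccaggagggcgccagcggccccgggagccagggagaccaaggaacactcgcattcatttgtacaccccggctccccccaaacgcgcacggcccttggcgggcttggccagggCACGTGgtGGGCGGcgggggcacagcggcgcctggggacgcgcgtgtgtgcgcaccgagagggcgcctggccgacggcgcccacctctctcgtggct
BSG, chr19:572346-572645, plus strand: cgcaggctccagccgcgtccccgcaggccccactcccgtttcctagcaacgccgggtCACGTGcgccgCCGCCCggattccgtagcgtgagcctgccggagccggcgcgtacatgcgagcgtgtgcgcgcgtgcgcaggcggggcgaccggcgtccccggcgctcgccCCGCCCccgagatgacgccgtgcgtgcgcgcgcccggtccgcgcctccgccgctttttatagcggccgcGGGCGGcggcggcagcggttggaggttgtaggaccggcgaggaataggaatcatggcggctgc
SLC16A7, chr12:59595779-59596078, plus strand: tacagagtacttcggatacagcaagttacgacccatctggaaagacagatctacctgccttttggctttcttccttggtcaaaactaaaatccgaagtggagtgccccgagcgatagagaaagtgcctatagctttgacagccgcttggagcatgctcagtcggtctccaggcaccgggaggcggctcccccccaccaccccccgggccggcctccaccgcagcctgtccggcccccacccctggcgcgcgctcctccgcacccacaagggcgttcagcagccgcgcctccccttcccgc

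CACGTG was present once in the SLC16A9 sequence and once in that of BSG, and in none of the other 11 starts of members, which include a second start of SLC16A9 and a second start of BSG. It was present in 7.26% of the 35116 promoter sequences of the table, ACGTG in 21.4% and GGGCGG in 45%. ACGTG also lay in starts of uncalled members, at 2 positions in a start of SLC16A3 and at 1 in that of SLC16A10. Both of these starts held GGGCGG as well. The SLC16A7 sequence held none of the 3 motifs. CpG pairs numbered 28 in the sequence of SLC16A9, 54 in that of BSG and 21 in that of SLC16A7, where the median of the table was 14. A second SLC16A7 start, 12:59689120-59689419 in the plus direction, held 1 CpG pair. No measurement of binding or methylation accompanied these libraries.

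The other 6 members were not called. SLC16A1 measured 195, 189 and 192 CPM in shControl and 190, 182 and 184 CPM in shSTBD1, with a log2 fold change of -0.05 (standard error 0.032). SLC16A3 measured 592, 538 and 548 CPM in shControl and 547, 560 and 535 CPM in shSTBD1, with -0.03 (standard error 0.037). The groups overlapped in both, and the sign of SLC16A3 turned without shControl replicate 1, to 0.01. The SLC16A3 to SLC16A1 ratio in TPM was 3.38 ± 0.22 in shControl and 3.56 ± 0.20 in shSTBD1 (SD, n = 3 each), with overlap. The ratio of BSG to the sum of the pair was 0.927 ± 0.025 and 0.891 ± 0.024, also with overlap, so that the groups were apart in BSG itself and met in its ratio to its cargo. The summed TPM of the 14 SLC16 genes was 571, 566 and 570 in shControl and 553, 552 and 530 in shSTBD1, lower in each depleted library. Between 89.3% and 90.7% of this sum came from SLC16A3 and SLC16A1, neither of which was called, and the sum itself was not tested.

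EMB measured 26.8, 25.3 and 27.4 CPM in shControl and 24.9, 26.6 and 25.3 CPM in shSTBD1, a log2 fold change of -0.05 (standard error 0.059). Its TPM did not overlap, at 7.81, 8.35 and 8.50 against 7.27, 7.59 and 7.54, and the mean effective length was 3689 bases in shControl and 3855 bases in shSTBD1. The counts and the TPM of EMB thus differ on whether the groups meet. SLC16A14 measured 23.1, 24.9 and 26.0 CPM in shControl and 25.8, 25.8 and 25.9 CPM in shSTBD1, 0.07 (standard error 0.060), or 0.02 without shControl replicate 1. SLC16A10 measured 9.82, 10.0 and 11.9 CPM in shControl and 10.4, 9.75 and 9.68 CPM in shSTBD1, -0.09 (standard error 0.097), or -0.14 without that library. SLC16A13 measured 4.31, 5.08 and 5.54 CPM in shControl and 5.63, 4.18 and 5.70 CPM in shSTBD1, 0.05 (standard error 0.154), or -0.04 without that library. In these 3 genes the groups overlapped, and the signs of SLC16A10 and SLC16A13 depended on the setting.

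Some members share exon bases with a gene on the opposite strand. SLC16A3 shares 482 bases with the kinase gene CSNK1D, SLC16A1 shares 231 with SLC16A1-AS1 and BSG shares 140 with BSG-AS1, and none of these 3 neighbours was called (log2 fold changes of -0.04, -0.03 and 0.04). SLC16A3, SLC16A6 and SLC16A13 lie on chromosome 17, as do SLC16A5 and SLC16A11, and SLC16A13 and SLC16A11 are adjacent. No sharing was found for SLC16A7, SLC16A9, SLC16A13, SLC16A14 or EMB.

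The 4 called members differed in how many settings called them. SLC16A6 was the only member called in all 16 settings, SLC16A7 was called in 13, SLC16A9 in 11 and BSG in 9. Each of the other 3 lost its call in the 3 settings that use effective length, where fewer genes were called over the whole table. In these settings the log2 fold change of SLC16A7 was 0.12, 0.09 and 0.11, against 0.35 in the counts. That of SLC16A9 was -0.20, -0.19 and -0.21, against -0.24, and that of BSG was -0.10, -0.11 and -0.11, against -0.10, so that the fold shrank in SLC16A7 and stayed about as large in SLC16A9 and BSG. All 4 kept their direction in all 16.

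**Figure D2:**
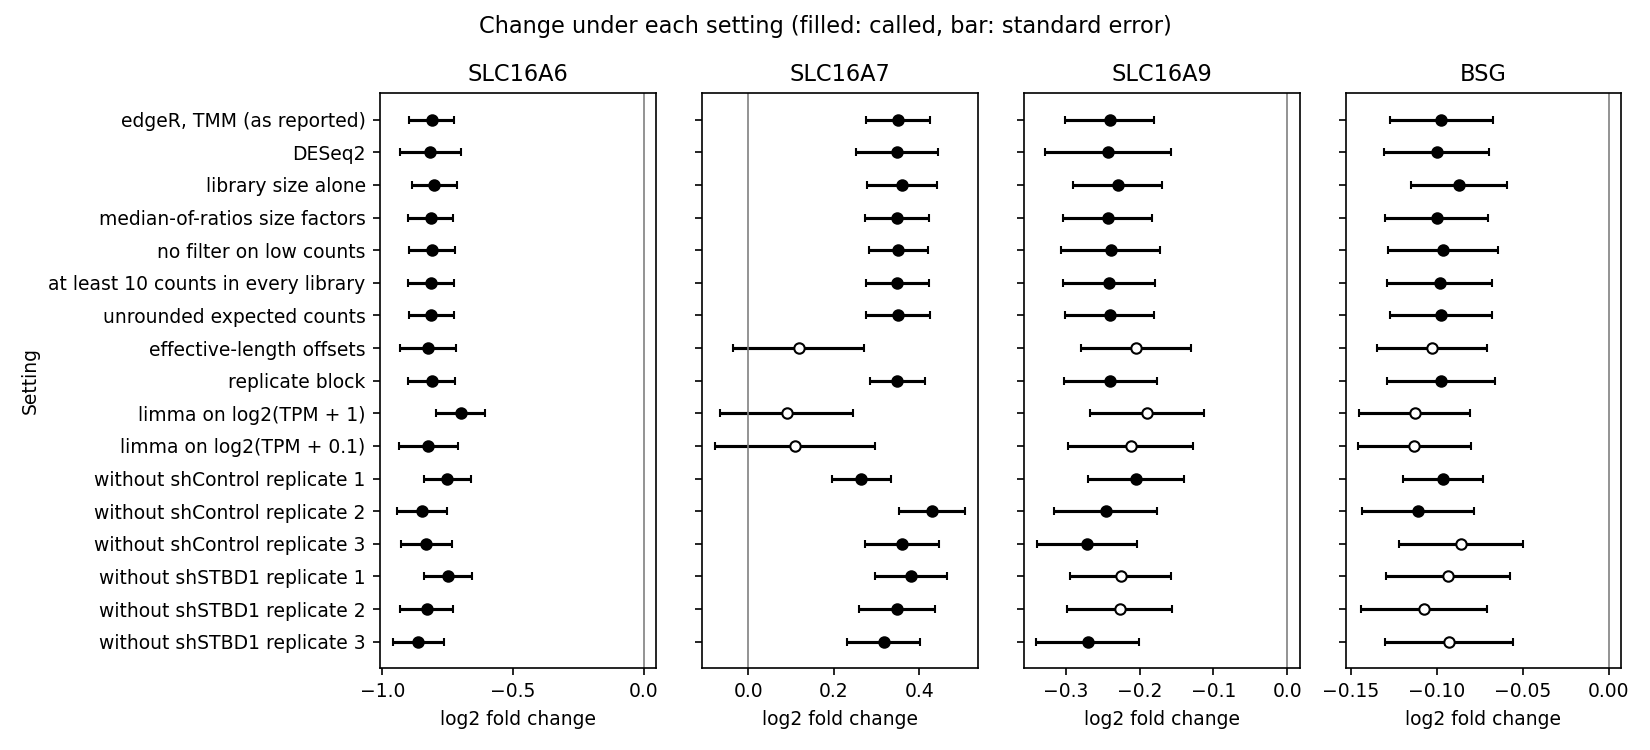
Log2 fold change with standard error of the 4 called members under the reported test and 16 alternatives, with filled points called at an adjusted p under 0.05 and a separate axis for each gene. SLC16A6 is filled throughout, and SLC16A7 is open and nearest to 0 at 0.12, 0.09 and 0.11 in the 3 settings that use effective length.

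The SLC16 genes outside the list gave no call. SLC16A4, SLC16A5 and SLC16A8 were tested, with log2 fold changes of 0.24 (standard error 0.358), -0.06 (standard error 0.072) and -0.01 (standard error 0.183), and 0 of 3 passed in edgeR, 0 at an unadjusted p under 0.05, and 0 in limma. DESeq2 gave an adjusted p for SLC16A5 alone of these 3, which did not pass. Without shControl replicate 1 the log2 fold change of SLC16A4 was -0.05 and that of SLC16A8 was -0.0021. SLC16A11 and SLC16A12 had too few counts to test. For SLC16A11 and SLC16A12 a difference was not detectable at this depth.

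The enzymes and carriers of lactate and pyruvate give the setting of the transporters. Of 11 genes, 5 were tested, 1 was called higher and 0 lower, beside 15.8% of all tested genes called and 8.22% called higher, and the median log2 fold change was 0.12. LDHA, the lactate dehydrogenase subunit that favours lactate formation, rose from 1402 ± 41.5 to 1525 ± 23.5 CPM (SD, n = 3 each), by 0.12 on the log2 scale with a standard error of 0.031 (edgeR adjusted p = 0.0144, between 4.64e-05 and 0.168 over 16 alternatives, of which 7 did not call it). LDHB, the subunit that favours lactate use, had a log2 fold change of -0.07 and was not called. Its CPM and its TPM were nevertheless lower in every shSTBD1 library than in any shControl library. The CPM of 33.6% of all tested genes did not overlap between the groups. The LDHA to LDHB ratio in TPM was 1.06 ± 0.016 in shControl and 1.21 ± 0.013 in shSTBD1, without overlap. The mitochondrial pyruvate carrier genes MPC1 (-0.18) and MPC2 (0.14) were not called, and the sodium-coupled lactate transporter genes SLC5A8 and SLC5A12 held 0 counts in all 6 libraries.

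The genes of acid and bicarbonate transport handle the proton that leaves with lactate. Of 13, 11 were tested, 3 were called higher and 0 lower, beside the same 15.8% and 8.22% over all tested genes, and the median log2 fold change was 0.26. The gene at this median was itself not called (standard error 0.166, groups overlapping), and some uncalled genes above it had means under 1 CPM. SLC4A7, a sodium bicarbonate importer, rose from 139 ± 2.17 to 173 ± 3.89 CPM (log2 fold change 0.32, standard error 0.032, adjusted p = 4.88e-06 in edgeR, between 1.09e-15 and 0.0524 over 16 alternatives). CA12, a surface carbonic anhydrase, rose from 9.60 ± 0.281 to 12.5 ± 0.866 CPM (0.38, standard error 0.088, adjusted p = 0.00755 in edgeR, 0.00238 to 0.291 over the alternatives). CA9, its hypoxia-inducible relative, rose from 5.60 ± 0.890 to 7.92 ± 1.03 CPM (0.50, standard error 0.137, adjusted p = 0.0193 in edgeR, 0.00134 to 0.206 over the alternatives). All 3 were higher in 3 of 3 libraries, and all 3 lost their call in limma on log2(TPM + 1). The anion exchanger SLC4A2 (-0.09) was not called.

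Genes whose proteins are related to basigin or bind it were called in both directions. Of 10, 9 were tested, 3 were called lower and 1 higher, beside 7.54% of all tested genes called lower and 8.22% higher, and the median log2 fold change was -0.03. The glucose transporter SLC2A1 fell from 480 ± 8.59 to 394 ± 1.3 CPM (log2 fold change -0.28, standard error 0.030, adjusted p = 6.29e-06 in edgeR, between 1.86e-17 and 0.0224 over 16 alternatives). SLC7A5, a carrier of large neutral amino acids, fell from 869 ± 46.6 to 740 ± 3.66 CPM (-0.23, standard error 0.036, adjusted p = 3.53e-04 in edgeR, 1.51e-11 to 0.0224), and its heavy chain SLC3A2 from 282 ± 7.95 to 256 ± 6.98 CPM (-0.14, standard error 0.033, adjusted p = 0.00785 in edgeR, 7.63e-05 to 0.188). The integrin subunit ITGB1 rose from 578 ± 5.67 to 637 ± 4.46 CPM (0.14, standard error 0.029, adjusted p = 0.00333 in edgeR, 4.92e-05 to 0.147). The basigin relative NPTN (-0.02), the basigin ligand PPIA (0.06) and CD44 (-0.03) were not called.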

How the data were processed

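RNA of 6 HCT116 libraries was compared, 3 shControl and 3 shSTBD1, grouped by their labels. The authors removed adapter, poly-N and low-quality reads, used STAR 2.7.1a with the gene models of Ensembl release 93 on hg38, and deposited RSEM 1.3.1 output per library, with replicates not pooled. The expected counts the authors deposited are not normalized, and the deposited TPM share 1 total across libraries after division by effective length. Effective length (bases) and RSEM's posterior columns, signal values that the authors deposited in reads or TPM, served as checks. The strand setting is not given in the sources used here.

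Of 58395 genes, 57754 were matched to a symbol. Expected counts were rounded, filtered with filterByExpr, scaled by TMM (factors 0.979 to 1.009) and tested in edgeR 4.0.16 (R 4.3.3) with a quasi-likelihood F-test and Benjamini-Hochberg adjustment over all 15566 tested genes. A call is an adjusted p under 0.05. Standard errors were derived from the fold change and F. The 16 alternatives were DESeq2 1.42.0, other scalings and filters, unrounded counts, effective-length offsets, a replicate block, limma 3.58.1 on log2(TPM + 1) and log2(TPM + 0.1), and 6 fits that each left out 1 library. The members and lists were chosen with earlier results of these data known. Named genes were the members, STBD1, the 6 other SLC16 genes and, of each other list, up to 4 called genes with the largest absolute log2 fold change. Uncalled genes of those lists and genes next to SLC16A6 were named after their values were seen. A gene of the other SLC16 genes and a gene of acid transport are not reported here. The scripts were tested on simulated counts. Positions and 3' UTRs came from GRCh38 with GENCODE 44, a later annotation than that of the authors, and promoters from RefSeq (GRCh38.p14). Totals of 17689097 to 21668274 counts per library set the precision, and counting error is largest for genes near 0.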

Additional observations from a re-analysis of the deposited data

How the results depend on the processing

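Over 16 alternatives, the call of SLC16A6 held in 16, and the counts of calls moved most in the settings that use effective length, of which the limma fits also change the test and the scaling. Genes called over all tested genes numbered 2453, and 511 with effective-length offsets, 292 with limma on log2(TPM + 1) and 290 with limma on log2(TPM + 0.1). Of the members, 4 were called, and 1, 1 and 1 in these settings. Of the other lists 8 genes were called, and 3, 2 and 2 in these settings. Leaving out 1 library at a time gave 1409 to 2577 calls over all genes, 2 to 4 among the members and 5 to 10 in the other lists. The lowest counts over all genes came without shSTBD1 replicate 1 (1570), 2 (1409) or 3 (1497), and the cause was not tested. STBD1 was -0.54 and -0.65 in limma with 1 or 0.1 added (adjusted p = 0.0646 and 0.0672), and between -0.76 and -0.57 with a library left out.

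Signs turned for uncalled genes. With a library left out SLC16A3 ran from -0.0583 to 0.0097, SLC16A10 from -0.138 to 0.00223, SLC16A13 from -0.0428 to 0.191, SLC16A4 from -0.0519 to 0.539 and SLC16A8 from -0.115 to 0.0611. SLC16A13 was also -0.0223 with effective-length offsets and -0.0312 and -0.0406 in limma with 1 and 0.1 added. The cause was not tested.

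The deviations of same-numbered libraries correlated at 0.0708, 0.0676 and -0.00841. Those of differently numbered libraries ran from -0.0741 to 0.0101, with -0.0741 and -0.0731 between numbers 1 and 2. All were small and number 3 gave none above 0.0101, so the numbers were not taken to pair the libraries. With the replicate block 2579 genes, 4 members and 8 genes of the other lists were called. Depth limits SLC16A11 and SLC16A12, which were not tested.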
